A study of Mus musculus with 12 samples.

Results

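tRNA-halves are fragments of about the length from 1 end of a transfer RNA to its anticodon, and here they are the plus-strand small RNA reads of 30 to 34 nt that the deposited files match to a tRNA entry. They were chosen by that length and that match alone, in all 10 small RNA libraries, and they comprise 15218 of the 2436314 distinct sequences listed. The libraries come from C57BL/6 mice, either wild type (WT) or labelled Gpx5-/- (KO), where Gpx5 encodes a glutathione peroxidase secreted by the epididymis. At 13 months there is 1 WT and 1 KO library of each of testis, caput, corpus and cauda epididymidis, pooled from 7 mice of each genotype, and at 2 months there is 1 WT and 1 KO library of caput, for which the labels give no number of mice. A further 2 libraries, 1 WT and 1 KO, hold the caput transcriptome at 13 months. No group has a replicate, so differences are not tested, there is no error between mice or libraries, and intervals in parentheses are 95% intervals that cover counting error only. Per the labels, testis and corpus were taken directly, whereas caput and cauda were punctured and kept in buffer so that spermatozoa left the tissue before RNA extraction. Between a tissue of the first pair and one of the second, tissue and preparation therefore cannot be told apart, and in pooled bulk tissue a change in the number of cells of a type and a change of RNA per cell cannot be told apart either.

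A mature tRNA folds into a cloverleaf whose anticodon loop sits near the middle of the chain. Ribonucleases such as angiogenin cut in that loop and leave a 5′-half, from the first base to the anticodon, and a 3′-half, from the anticodon to the CCA end. The angiogenin inhibitor RNH1 holds this cleavage back, and the methyltransferases DNMT2 (gene Trdmt1) and NSUN2 protect some tRNAs from it. 5′-halves of tRNA-Gly, tRNA-Glu and tRNA-Val are known as abundant small RNAs of mouse epididymis and mature sperm.

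Reads were grouped by their exact first 15 bases, and each group of 5′-halves was named from the anticodon that longer reads with the same start run into. The tRNA-Asp group, a 3′ fragment, was named from the anticodon in reads that begin 7 or more bases earlier. In all, 8 families reach 1% of tRNA-half reads in a library. The most abundant sequence is printed for 7 of them, 5′ to 3′, with its last 3 bases in capitals. In the 5′-halves these bases show where each family ends, beside or in the anticodon. In the tRNA-Asp 3′-half they are the end away from the anticodon, which lies before its first base.
tRNA-Gly: gcattggtggttcagtggtagaattctCGC
tRNA-Val: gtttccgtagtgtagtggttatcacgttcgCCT
tRNA-Lys: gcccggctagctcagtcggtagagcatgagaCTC
tRNA-Cys: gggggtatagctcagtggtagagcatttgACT
tRNA-His: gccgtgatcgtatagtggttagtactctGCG
mt-tRNA-Tyr: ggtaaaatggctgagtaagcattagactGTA
tRNA-Asp: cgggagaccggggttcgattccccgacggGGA
The first 6 are 5′-halves. The tRNA-Asp sequence is called a 3′-half for short, as it is a 3′ fragment that begins past the anticodon and ends without CCA. The tRNA-Gly 5′-half is 30 nt long and ends 2 bases before the anticodon GCC, and the tRNA-His 5′-half of 31 nt also ends 2 bases before its anticodon GTG. The tRNA-Val (33 nt) and tRNA-Cys (32 nt) sequences end at the base next to the anticodon. The tRNA-Lys 5′-half of 34 nt takes in 1 anticodon base, and the mitochondrial tRNA-Tyr 5′-half of 31 nt takes in all 3.

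Each family came almost wholly from 1 or a few parent entries. Of the tRNA-Gly reads, 99.5% or more in every library matched 1 Rfam tRNA entry of 71 bases, and of the tRNA-Val reads 79.1% to 93.3% matched 1 Rfam entry of 74 bases. The tRNA-Lys reads matched 1 Rfam entry of 73 bases in 99.4% or more of cases, and the tRNA-Glu reads 1 entry of 71 bases in 99.2% or more. All tRNA-His reads and all tRNA-Asp reads matched 1 GenBank tRNA entry each, and all mitochondrial tRNA-Tyr reads matched 1 Rfam entry of 67 bases. The main tRNA-Val 5′-half carries 2 mismatches to its entry, which is the most that the files allow. The most frequent match of tRNA-Glu and of tRNA-Cys reads to their main entries also carries 2 mismatches. Near-identical tRNA genes cannot be separated by these reads: the RefSeq table of GRCm38.p6 lists 28 tRNA-Gly genes on 9 chromosomes, 22 tRNA-Val genes on 9 and 20 tRNA-Glu genes on 10. No genome position is therefore given for any tRNA-half.

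Library depth was 3855476 to 29049669 classified reads, and the tRNA-halves numbered from 35315 reads in WT caput at 2 months to 3297218 in WT cauda. In the caput transcriptome Gpx5 was at 8474 RPKM in WT and 918 RPKM in KO, which is the direction the labels give, with transcript remaining in KO. The piRNA share, which marks testicular germ cells, was 64.1% in WT and 62.8% in KO testis, 15.8% in WT caput at 13 months and 0.0504% to 1.37% in the other 7 libraries. The sperm-cell transcripts Prm2 and Tnp1 were at 2745 and 2329 RPKM in WT caput against 51.7 and 24.1 RPKM in KO caput, while the caput secretory gene Lcn5 was at 770 RPKM in WT and 2294 RPKM in KO. The WT caput library at 13 months thus holds germ-cell RNA that the KO library largely lacks, and the part of this in the differences between them was not tested. Of the 100 most abundant ranks, 9 to 23 have no line in the 13-month files and 2 to 5 in the 2-month files, so a sequence at 0 may be unlisted rather than absent.

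The first question was how large a share of the small RNAs the tRNA-halves made up in each tissue, age and genotype. Testis had the lowest share and cauda the highest, in both genotypes. In testis the tRNA-halves made up 0.531% of classified reads in WT (0.527% to 0.536%) and 0.539% in KO (0.535% to 0.544%). In caput at 13 months they made up 13.5% in WT (13.49% to 13.53%) and 12.5% in KO (12.45% to 12.48%). In corpus the WT share was 8.56% (8.55% to 8.57%) and the KO share 12.6% (12.56% to 12.60%). Cauda had 20.07% in WT (20.05% to 20.09%) and 20.05% in KO (20.02% to 20.07%), so the tRNA-halves were about as frequent in both genotypes there. In caput at 2 months the share was only 0.916% in WT (0.906% to 0.926%) and 0.933% in KO (0.926% to 0.940%).

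The KO and WT shares differed most in corpus. There the KO share was 1.47-fold the WT share (1.466 to 1.473; log2 0.56). In caput at 13 months the ratio was 0.923 (0.921 to 0.925; log2 -0.12), and in cauda 0.999 (0.997 to 1.001). The ratio was 1.01 in testis (1.002 to 1.028) and 1.02 in caput at 2 months (1.006 to 1.032). Single families moved the corpus ratio: leaving out the tRNA-Glu start lowered its log2 value to 0.38, and leaving out the tRNA-Gly start raised it to 0.82.

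Between tissues, cauda exceeded testis 37.8-fold in WT (37.4 to 38.1) and 37.2-fold in KO (36.8 to 37.5). Cauda exceeded caput 1.49-fold in WT and 1.61-fold in KO. Corpus was at 0.634 of the caput share in WT and at 1.01 of it in KO, so the order of caput and corpus differed between the genotypes. Caput at 13 months exceeded caput at 2 months 14.7-fold in WT (14.6 to 14.9) and 13.4-fold in KO (13.3 to 13.5). The 2-month libraries consisted of miRNA reads to 97.9% and 98.1%, against 55.2% and 77.4% in caput at 13 months, and their files were made separately, so age and processing cannot be told apart. Among plus-strand tRNA reads the order of the ages was the opposite. Of the tRNA reads of caput, tRNA-halves made up 92.1% (WT) and 94.0% (KO) at 2 months, and 63.1% (WT) and 64.7% (KO) at 13 months. On that base testis had 40.5% and 41.7%, corpus 43.1% and 55.3%, and cauda 52.0% and 61.6% in WT and KO.

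**Figure D1:**
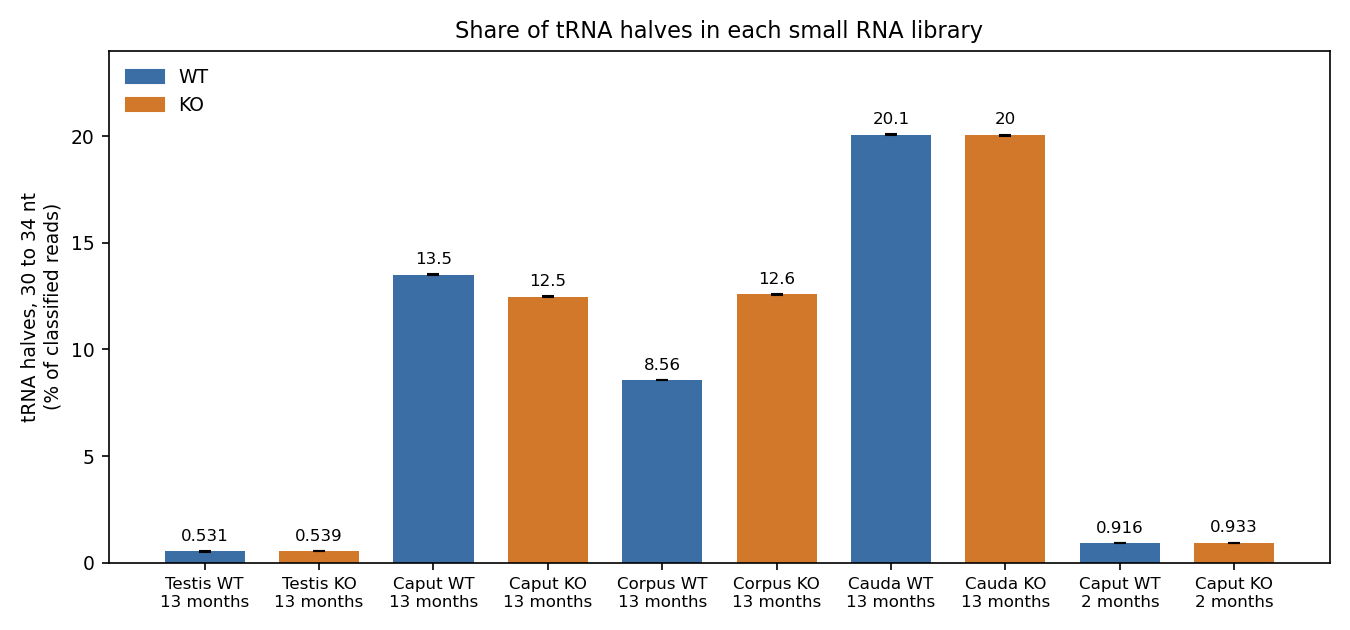
tRNA-halves as a percentage of the classified reads of each library, with blue bars for WT, orange bars for KO and black bars for the 95% counting interval. The 2 testis and the 2 caput libraries at 2 months lie below 1%, and both cauda bars stand near 20.1%.

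The tRNA-halves were made of few sequences and few families. The 2 most abundant sequences of a library held 47.9% to 82.9% of its tRNA-half reads, and the 10 most abundant held 72.3% to 93.6%. In all 10 libraries these 2 sequences were the 30 nt tRNA-Gly 5′-half and the 33 nt tRNA-Val 5′-half printed above, with tRNA-Gly first in both caput libraries at 13 months, in WT corpus and in both cauda libraries. The 30 nt tRNA-Gly 5′-half was at 462 and 483 RPM (reads per 1000000 classified reads) in WT and KO testis, 55265 and 54674 RPM in caput at 13 months, 35427 and 38647 RPM in corpus, 105200 and 104720 RPM in cauda, and 1282 and 986 RPM in caput at 2 months. The 33 nt tRNA-Val 5′-half was at 2430 and 2226 RPM in testis, 46742 and 41283 RPM in caput at 13 months, 28563 and 41804 RPM in corpus, 61221 and 54468 RPM in cauda, and 3109 and 4493 RPM in caput at 2 months.

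tRNA-Val led in testis and tRNA-Gly in cauda. tRNA-Val made up 63.0% of tRNA-half reads in WT testis and 61.4% in KO testis, and tRNA-Gly 9.21% and 9.38%. In cauda the tRNA-Val share was 37.2% in WT and 36.7% in KO, and the tRNA-Gly share 53.1% and 52.8%. Caput at 13 months lay between them, with tRNA-Val at 45.4% and 43.4% and tRNA-Gly at 41.3% and 44.5%. In caput at 2 months tRNA-Val made up 38.4% in WT and 54.3% in KO, and tRNA-Gly 28.2% and 27.9%, by exact start. Reads of none of the 8 starts were most frequent in WT caput at 2 months, at 31.1% of tRNA-half reads, against 15.7% in KO. With up to 2 mismatches allowed in the first 15 bases, only 1.099% of reads kept another start in that WT library, so most of the other starts were altered forms of the 8 families. On this tolerant grouping the comparison at 2 months changed: tRNA-Val made up 48.9% in WT and 57.1% in KO, and tRNA-Gly 47.5% and 39.5%. On the same tolerant grouping 9.97% of tRNA-half reads in WT testis and 11.9% in KO testis belonged to none of the 8 families, against 0.77% to 1.47% in the other libraries.

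**Figure D2:**
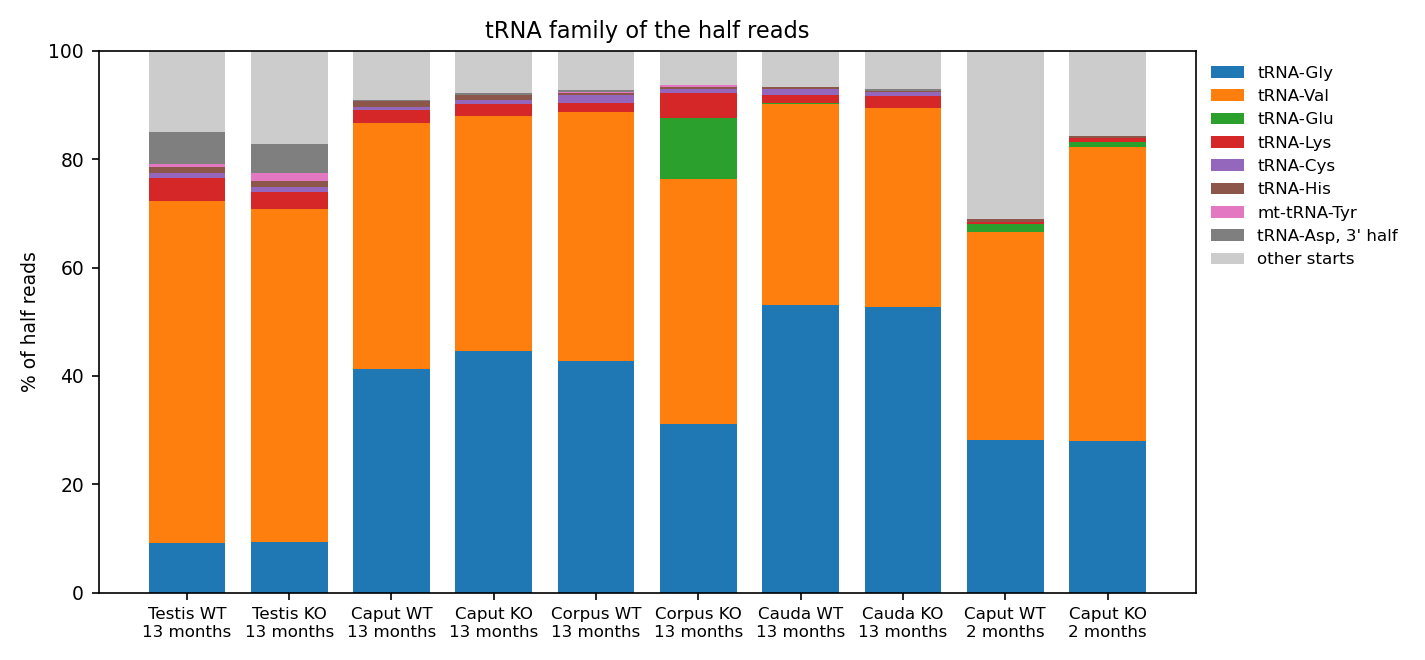
Percentage of tRNA-half reads in each tRNA family, by exact 15-base start, for each library. tRNA-Val (orange) is the largest block in testis and tRNA-Gly (blue) in cauda, and the tRNA-Glu block (green) reaches 11.3% in KO corpus.

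By exact start, the amount of tRNA-Gly 5′-halves was close between genotypes in every pair, and that of tRNA-Val was higher in KO in corpus and in caput at 2 months. At 18 nt, outside the tRNA-halves, the tRNA-Gly start was lower in KO in every pair, in cauda at 158050 RPM in WT against 104120 in KO. The values at 2 months depended on the exact start. The tRNA-Gly family was at 36663 RPM in WT against 39236 in KO corpus, a ratio of 1.07 (1.066 to 1.074). The tRNA-Val family was at 39251 and 56835 RPM there, a ratio of 1.45 (1.443 to 1.453). In caput at 2 months tRNA-Gly was at 2587 and 2606 RPM (ratio 1.01) and tRNA-Val at 3513 and 5066 RPM (ratio 1.44, 1.41 to 1.47). With up to 2 mismatches allowed in the start, tRNA-Gly was lower in KO there, at 4352 and 3684 RPM (ratio 0.846, 0.830 to 0.863), and the tRNA-Val ratio fell to 1.19 (1.17 to 1.21), at 4481 and 5327 RPM. The tolerant ratios in corpus were 1.08 for tRNA-Gly and 1.45 for tRNA-Val. By exact start, in caput at 13 months the ratios were 0.995 for tRNA-Gly and 0.883 for tRNA-Val. In cauda they were 0.993 for tRNA-Gly and 0.986 for tRNA-Val, and in testis 1.03 and 0.989.

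As listed, and by exact start, tRNA-Glu 5′-halves were abundant in KO corpus alone. This family, whose anticodon CTC reads glutamate codons, was at 14167 RPM in KO corpus, from 118384 reads of 64 sequences. In WT corpus it was at 0.0688 RPM, from 2 reads. The other 13-month libraries had 0.407 to 67.2 RPM, and the caput libraries at 2 months 129 RPM in WT against 89.4 in KO. In KO corpus the reads were spread over the lengths, with 1035 RPM at 30 nt, 2262 RPM at 31 nt, 3005 RPM at 32 nt, 4620 RPM at 33 nt and 3244 RPM at 34 nt. WT corpus also lacks lines for 11 of its 100 most abundant ranks, and whether tRNA-Glu reads were among them was not tested. Reads of this family most often matched their entry with 2 mismatches already. A read with a further substitution is listed only where it matches some entry, and how many were unlisted was not tested.

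tRNA-Lys 5′-halves were also higher in KO corpus. They were at 227 and 169 RPM in WT and KO testis, 3139 and 2812 RPM in caput at 13 months, 1351 and 5729 RPM in corpus, 3018 and 4276 RPM in cauda, and 41.0 and 63.1 RPM in caput at 2 months. The corpus ratio was 4.24 (4.18 to 4.30). The lengths of this family differed in WT corpus: 32 nt reads were its largest length class at 42.0%, whereas 34 nt reads led in the other 9 libraries at 39.9% to 60.1%.

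tRNA-His 5′-halves differed in opposite directions in corpus and cauda. They were at 273 RPM in WT against 550 in KO corpus, a ratio of 2.02 (1.94 to 2.09), and at 646 RPM in WT against 207 in KO cauda, which is 3.13-fold lower in KO (2.99 to 3.27). The difference lay at the 2 short lengths. At 30 nt the family was at 172 RPM in WT against 1.66 in KO cauda, and at 31 nt at 215 and 2.10 RPM. At 33 nt it was at 148 and 104 RPM, and at 34 nt at 84.5 and 80.7 RPM, so the long forms differed far less. WT corpus likewise had only 3.41 RPM at 30 nt against 154 RPM in KO corpus, while its 33 nt form was at 141 RPM against 103 RPM. In both caput libraries at 13 months the 30 nt form was at 382 to 434 RPM. The 2 libraries with almost no 30 nt tRNA-His 5′-halves are thus WT corpus and KO cauda.

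The tRNA-Asp 3′-half, the only 3′ fragment among the 8 families, took its largest share in testis. It made up 5.84% of tRNA-half reads in WT testis and 5.39% in KO testis, against 0.296% or less in every other library. In amount it was at 310 and 291 RPM in testis, 399 and 313 RPM in caput at 13 months, 229 and 93.8 RPM in corpus, and 87.5 and 471 RPM in cauda. Corpus was thus 2.44-fold lower in KO (2.27 to 2.64) and cauda 5.39-fold higher in KO (5.08 to 5.72). At 2 months it had 0 reads in WT and 1 read in KO caput, and the floor of 3 reads is 0.778 RPM in that WT library.

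tRNA-Cys and mitochondrial tRNA-Tyr 5′-halves were minor. tRNA-Cys was at 1377 and 962 RPM in corpus and 2428 and 1659 RPM in cauda, so it was 1.43-fold and 1.46-fold lower in KO, and it was near equal in caput at 13 months, at 903 and 848 RPM. Mitochondrial tRNA-Tyr was higher in KO in each of the 4 tissues at 13 months: it was at 25.7 and 79.2 RPM in testis (ratio 3.08, 2.65 to 3.60), 48.7 and 94.8 RPM in caput (1.95), 224 and 344 RPM in corpus (1.53) and 87.2 and 117 RPM in cauda (1.35). At 2 months it was at 0.778 and 1.56 RPM, from 3 and 12 reads.

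The lengths of the tRNA-halves followed the families. Reads of 30 nt were the largest length class in both caput libraries at 13 months, in WT corpus and in both cauda libraries, at 46.9% to 58.1% of tRNA-half reads. Reads of 33 nt were the largest class in both testis libraries (53.8% and 49.8%), in KO corpus (41.9%) and in both caput libraries at 2 months (46.8% and 54.7%). The 33 nt step was tRNA-Val: 74.95% to 94.4% of the reads of that family were 33 nt long in every library. The 30 nt step was tRNA-Gly, and here the ages differed.

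At 13 months the tRNA-Gly reads stopped at 30 nt, whereas at 2 months they ran on to 32 nt. The 4 lengths concerned are shown with the bases after position 18 in capitals.
tRNA-Gly 18 nt: gcattggtggttcagtgg
tRNA-Gly 30 nt: gcattggtggttcagtggTAGAATTCTCGC
tRNA-Gly 31 nt: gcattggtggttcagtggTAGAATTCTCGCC
tRNA-Gly 32 nt: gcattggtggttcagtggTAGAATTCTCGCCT
In caput at 2 months the exact 30 nt sequence was at 1282 RPM in WT against 986 in KO, the 31 nt sequence at 702 and 909 RPM, and the 32 nt sequence at 552 and 645 RPM. In all 8 libraries at 13 months the exact 31 and 32 nt sequences had 0 reads, although the 30 nt sequence had up to 1728749 reads. The reads of 31 and 32 nt that these libraries do list with the tRNA-Gly start, 140 to 23412 per library, all carried a mismatch past base 18. At 2 months that was so for 0.452% of them in WT and 0.863% in KO.

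The 13-month libraries also held many tRNA-Gly reads of exactly 18 nt. The number of 18 nt reads per 30 nt read was 8.56 in WT and 6.84 in KO testis, 1.11 and 0.977 in caput, 2.61 and 2.09 in corpus, and 1.49 and 0.988 in cauda. In caput at 2 months it was 0.225 in WT and 0.189 in KO. With 18 nt the shortest length listed, these reads lie outside the length range of the tRNA-halves. Counting them with the tRNA-halves changed the KO to WT comparison in cauda, from a log2 ratio of 0.00 to -0.24, and lowered that of corpus from 0.56 to 0.21. The bases after position 18, in capitals above, resemble the start of a 3′ adapter in common use for Illumina small RNA libraries, so reads trimmed at those bases would be listed at 18 nt, and the amounts and lengths of tRNA-Gly carry this limit. How adapter sequence was removed is not given in the sources used here, and its part in the steps at 18 and 30 nt was not tested.

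**Figure D3:**
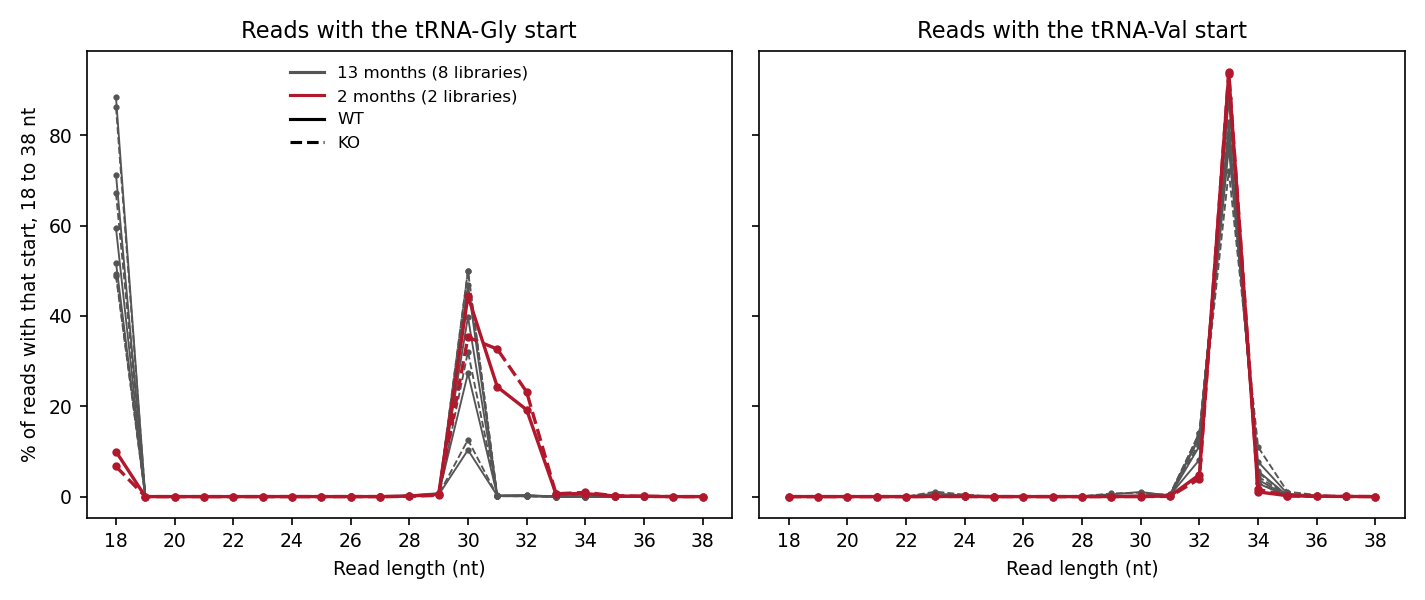
Length of the reads that begin with the tRNA-Gly start (left) or the tRNA-Val start (right), as a percentage of the reads of that start from 18 to 38 nt, with grey lines for 13 months, red lines for 2 months, solid lines for WT and dashed lines for KO. tRNA-Val peaks at 33 nt at both ages, whereas tRNA-Gly has 18 nt and 30 nt peaks at 13 months and extends over 30 to 32 nt at 2 months.

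Nearly all tRNA-halves outside testis were 5′-halves. In the 8 epididymal libraries 98.2% to 99.2% of tRNA-half reads began exactly at the first base of 1 of the 7 families of 5′-halves, with up to 2 mismatches allowed, and in testis 84.1% in WT and 82.7% in KO did. The positions of reads within the parent entries are not in the files, so origin was read from the start of the sequence. The B box of tRNA genes, GTTCNANNC, lies in the T arm and so marks 3′ fragments. Reads holding these letters were 7.76% of tRNA-half reads in WT testis and 7.52% in KO testis, and 0.0112% to 0.437% in the other libraries. Only the read strand was searched. The motif was in 6.83% of the distinct tRNA-half sequences and in 0.670% of all 604824 distinct plus-strand sequences of 30 to 34 nt. Reads ending in CCA were 0.958% of tRNA-half reads or fewer in every library. The CCA end is added after transcription, and a read that carries it is listed only if it matches an entry with at most 2 mismatches, so this percentage does not measure how frequent such 3′-halves were.

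Single-base substitutions in the 2 leading tRNA-halves were counted next, because tRNA bases are heavily modified and because many of the other starts are such forms. Positions are counted from 1 at the 5′ end, and each percentage is over the reads of the exact sequence and of all its single substitutions at that position. Positions 6, 9, 15 and 16 of tRNA-Gly and 7, 15, 16 and 26 of tRNA-Val are in capitals. Because the files list at most 2 mismatches and the main tRNA-Val sequence has 2 already, substituted tRNA-Val reads are listed only where they match some entry, which limits their percentages.
tRNA-Gly: gcattGgtGgttcaGTggtagaattctcgc
tRNA-Val: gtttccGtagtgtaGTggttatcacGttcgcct
Some substitutions were present in all 10 libraries. In tRNA-Gly, G6T was at 6.33% to 12.1% in the 13-month libraries and at 19.96% and 21.3% in the WT and KO caput libraries of 2 months. In tRNA-Val, G26T was at 2.47% to 4.29% and G7A at 0.310% to 0.448% in every library. G9C in tRNA-Gly was at 5.14% in WT and 4.43% in KO testis and at 0.673% or less elsewhere, and G9A was at 3.31% and 2.50% in testis and at 0.395% or less elsewhere. As background, guanines at positions 9 and 26 of many tRNAs are methylated, by TRMT10 and TRMT1 enzymes; no modification was measured here.

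Other substitutions stood out in 1 or 2 libraries, at the same position in tRNA-Gly and tRNA-Val. In WT caput at 13 months position 15 carried G15C at 0.540% in tRNA-Gly and 0.542% in tRNA-Val, against 0.0202% or less for tRNA-Gly in the other libraries. In KO caput at 13 months position 16 carried T16A at 0.274% in tRNA-Gly and 0.291% in tRNA-Val, and T16C at 0.257% and 0.253%. In WT corpus position 19 carried T19G at 0.332% in tRNA-Gly and 0.553% in tRNA-Val, against at most 0.126% and 0.0274% in the others. Positions 3 and 4 stood out in both caput libraries at 2 months, more so in WT. Substitutions at position 3 were at 8.24% in WT and 2.25% in KO for tRNA-Gly and at 15.8% and 2.53% for tRNA-Val, against at most 0.0754% and 0.0622% at 13 months. At position 4 they were at 12.4% and 2.72% for tRNA-Gly and at 6.25% and 0.968% for tRNA-Val, against at most 0.101% and 0.0336% at 13 months. The miRNA miR-10b-5p, an unrelated small RNA, had substitutions of 1.34% at position 15 in WT caput at 13 months and 0.0151% to 0.0735% in the other libraries. At position 16 it had 0.495% in KO caput at 13 months and 0.0282% to 0.172% in the others, and at 2 months it had 7.04% in WT and 1.68% in KO at position 3 and 4.10% and 1.25% at position 4. Positions 3, 4, 15 and 16 therefore stood out in the same libraries in an RNA that is not a tRNA, whereas its position 19 was at 0.0106% in WT corpus. Position 9 of miR-10b-5p was at 0.222% in WT caput at 13 months and at 0.0115% to 0.0452% in the other epididymal libraries. In tRNA-Lys of 34 nt, T20G was at 68.2% in WT corpus and at 11.8% or less in the other libraries, so of the exact and T20G forms at that length in WT corpus most were T20G.

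**Figure D4:**
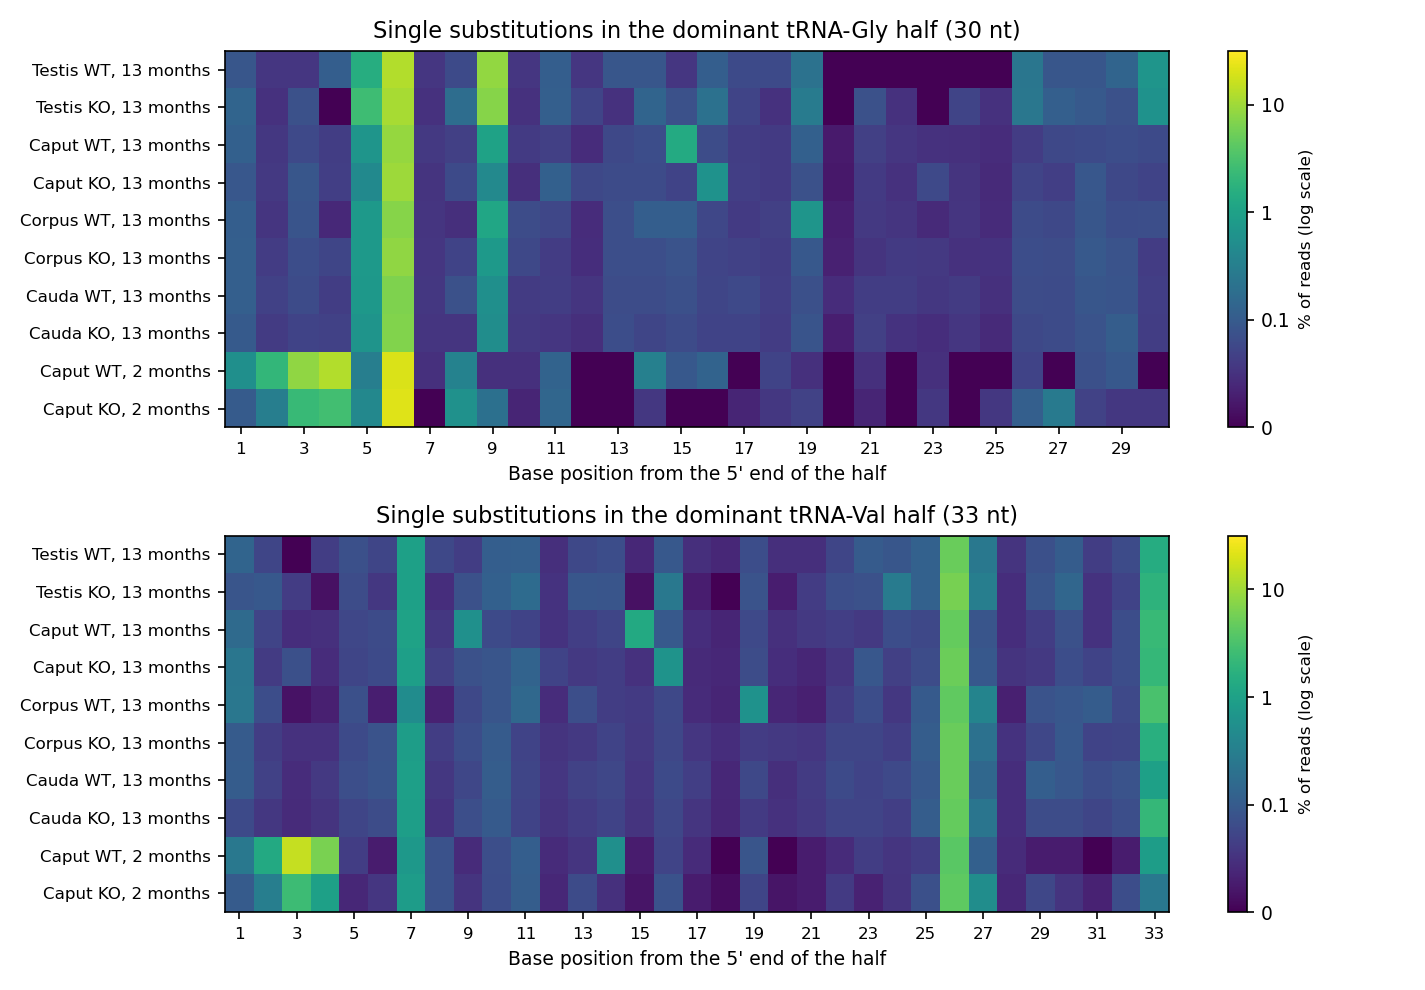
Percentage of reads with a single substitution at each base of the 30 nt tRNA-Gly 5′-half (top) and the 33 nt tRNA-Val 5′-half (bottom), by library, on a log colour scale. Columns that are bright in all libraries are bases 6 and 26, and cells that are bright in 1 library lie at base 15 in WT caput, base 16 in KO caput and base 19 in WT corpus at 13 months, and at bases 2 to 4 at 2 months.

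Single tRNA-half sequences were compared between KO and WT in each pair. A sequence counted as measured if WT or KO had at least 100 RPM, and was called at a ratio of 2 or more whose interval excludes 1. In testis 6 sequences were measured and none was called higher or lower, where 7.43% of all small RNA sequences measured were called higher and 11.6% lower. In caput at 13 months 47 were measured, with 4 higher in KO, where 5.58% of all sequences measured were higher, and 10 lower, where 38.3% were. In corpus 46 were measured, with 16 higher (against 18.8% of all sequences) and 7 lower (against 17.7%). In cauda 40 were measured, with 7 higher (against 17.4%) and 2 lower (against 7.21%). In caput at 2 months 13 were measured, with 0 higher (against 9.55%) and 4 lower (against 40%). The median log2 ratio of the measured tRNA-halves was -0.20 in caput at 13 months against -0.36 over all sequences, 0.60 against -0.17 in corpus, and 0.10 against 0.29 in cauda.

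Most calls in caput were single-substitution forms. All 4 higher sequences in caput at 13 months were position 16 forms of tRNA-Gly or tRNA-Val, and 9 of the 10 lower ones were forms with a substitution at position 9 or 15. All 4 lower sequences at 2 months were position 3 forms. Of the called forms, 4 from these pairs and 2 that were lower in KO corpus are shown with the substituted base in capitals.
tRNA-Gly T16A: gcattggtggttcagAggtagaattctcgc
tRNA-Gly G15C: gcattggtggttcaCtggtagaattctcgc
tRNA-Val G15C: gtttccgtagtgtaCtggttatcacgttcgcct
tRNA-Val T3C: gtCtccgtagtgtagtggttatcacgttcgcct
tRNA-Val T19G: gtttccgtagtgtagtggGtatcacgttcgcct
tRNA-Lys T20G: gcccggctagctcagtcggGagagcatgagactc
The tRNA-Gly T16A form was at 12.9 RPM in WT against 151 in KO caput at 13 months. The tRNA-Gly G15C form was at 303 and 0.817 RPM there, and the tRNA-Val G15C form at 257 and 1.03 RPM. The tRNA-Val T3C form was at 233 RPM in WT against 44.2 in KO caput at 2 months.

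In corpus and cauda the calls also took in unsubstituted sequences. In corpus 5 of the 16 higher sequences were single-substitution forms, 2 at position 29 of tRNA-Lys and 1 each at positions 7, 26 and 34 of tRNA-Val. Position 34 is the first anticodon base of tRNA-Val, where longer reads held both GAC and CAC. A form that differs by 1 base can thus also be the unaltered sequence of another tRNA gene, and which it is was not tested. By start, 5 of the 16 belonged to tRNA-Lys, 5 to tRNA-Glu, 2 to tRNA-His and 2 to tRNA-Val, and 2 had another start. Of the 7 lower sequences in corpus, 6 were single-substitution forms. The tRNA-Val T19G form was at 159 RPM in WT against 0.479 in KO corpus, the 32 nt tRNA-Lys T20G form at 176 and 0.598 RPM, and the 34 nt form printed above at 191 and 1.32 RPM. In cauda the 2 lower sequences were the 30 and 31 nt tRNA-His 5′-halves. The 3 sequences with the largest ratio among the 7 higher ones in cauda are 2 forms of the tRNA-Asp 3′-half and a sequence whose start is outside the 8 families.
tRNA-Asp 32 nt: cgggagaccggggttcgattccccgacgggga
tRNA-Asp 31 nt: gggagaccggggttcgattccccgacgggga
unnamed start: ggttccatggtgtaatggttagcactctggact
The 32 nt tRNA-Asp form was at 40.4 RPM in WT against 257 in KO cauda, a ratio of 6.35 (5.84 to 6.92). The 31 nt form, which begins 1 base later, was at 5.90 and 205 RPM, a ratio of 34.7 (28.3 to 43.0). The third was at 141 and 475 RPM, a ratio of 3.37 (3.21 to 3.54).

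**Figure D5:**
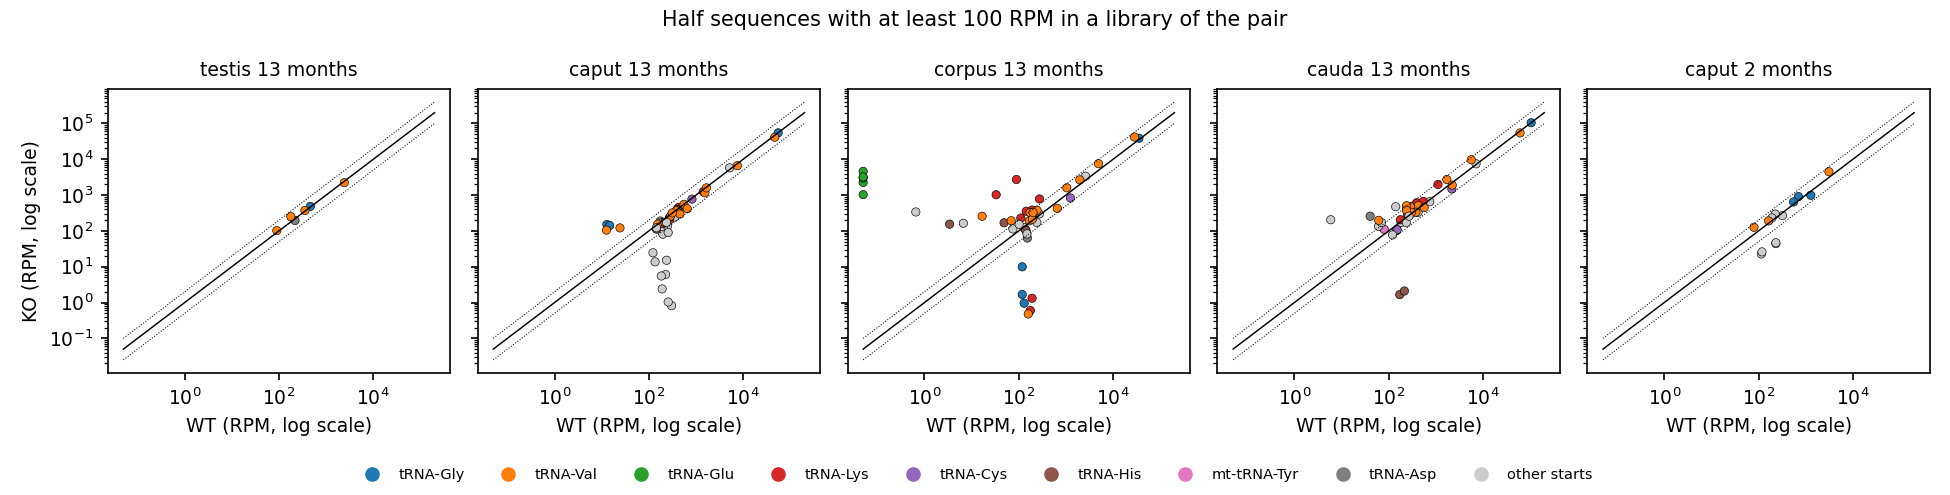
tRNA-half sequences with at least 100 RPM in a library of the pair, with WT on the horizontal and KO on the vertical log axis in RPM, coloured by family. The solid line is equality and dotted lines are 2-fold, values below 0.05 RPM are drawn at 0.05, and the tRNA-Glu sequences of corpus (green) lie at that left edge.

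The genes of tRNA cleavage, modification and repair were read from the caput transcriptome at 13 months. Of the 36 genes of the list, 32 were in the table and 27 had at least 1 RPKM in a library. None reached a difference of 1 on the log2(RPKM + 1) scale in either direction, where 2.77% of all 15000 genes measured did so upward and 22.1% downward in KO. The median difference of the list was 0.34, and that of all genes 0.05. Ang, which encodes angiogenin, was at 2.52 RPKM in WT and 6.00 RPKM in KO, a difference of 0.99 that lies just under the threshold. Rnh1, the inhibitor of angiogenin, was at 74.5 and 140 RPKM (0.90). The ribonuclease T2 genes Rnaset2a and Rnaset2b, which are near-identical copies and may share reads, were at 154 and 279 RPKM and at 146 and 265 RPKM (0.86 for each). Other genes of the list were lower in KO by a similar amount: Alkbh3 was at 24.9 and 12.9 RPKM (-0.89) and Clp1 at 18.5 and 10.2 RPKM (-0.81). Among the methyltransferases, Nsun2 was at 17.1 and 11.0 RPKM (-0.59) and Trdmt1 at 2.88 and 2.75 RPKM (-0.05). Elac2, the nuclease that trims the 3′ end of tRNA precursors, was at 2.88 and 2.27 RPKM (-0.25). The germ-cell transcripts named above were far lower in KO in these same 2 libraries, and their part in these values was not tested.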

How the data were processed

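Small RNA libraries of 10 groups and 2 caput transcriptomes were used, with 1 library per group. Per the labels, small RNAs of 18 to 40 nt were cut from a gel and sequenced on 1 of 2 Illumina models, with no library assigned to either. The deposited small RNA files hold read counts per distinct sequence, each matched to an entry with up to 2 mismatches, per the file headers. In the 2-month files some count fields had become dates (5531 WT and 5419 KO lines, of which 228 and 236 are tRNA-halves), and the month was taken as the count. The submitters' processing notes name Bowtie 0.12.7, TopHat2 and mm9 with no role given. The transcriptome table holds the authors' RPKM, log2 fold change, GFOLD value and E-FDR (a q-value, 1 in every row) columns, made with GFOLD 1.1.3; of these, RPKM was used. Gene symbols that had become dates were restored through RefSeq accessions, and the transcript with the highest mean RPKM stood for a gene. No values were averaged, as no group has replicates.

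Shares have Clopper-Pearson intervals and ratios exact conditional binomial intervals (scipy 1.17.1, pandas 2.3.3, numpy 2.4.6, matplotlib 3.10.9). The code of the ratio intervals was run on simulated counts that carry counting error alone. That run says nothing of variation between libraries or of unlisted sequences. Reads carry no molecular identifiers. The floor of 3 counts is 1.03e-05% to 7.78e-05% of classified reads. The files name no amino acid, so families are named from the anticodon in longer reads; for tRNA-Asp, 1361 of 1366 reads that begin 7 or more bases earlier hold GTC. The positions of reads in their entries were planned as the measure of origin but are not in the files, and the read start was used. Sequences named are the 3 most abundant per library, the leading one per family of at least 1% and the 3 largest ratios per direction and pair. Genes named are those called and Ang, Rnh1, Trdmt1, Nsun2 and Elac2, with Rnaset2a, Rnaset2b, Alkbh3 and Clp1 chosen after their values were seen. Members and lists were chosen with earlier results of these data known. Alternatives changed the denominator, lengths, mismatches, minimum counts, abundant sequences, strand, entries, pseudocount and filters. The most abundant sequence of 1 family and the 3 largest ratios higher in KO corpus are not reported here.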

Additional observations from a re-analysis of the deposited data

Results flagged for a closer look

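The share of tRNA-halves differed between KO and WT in opposite directions in caput and corpus at 13 months, at log2 -0.12 and 0.56, and the difference was not tested. The tRNA-Asp 3′-halves were lower in KO corpus (log2 -1.29) and higher in KO cauda (log2 2.43), and the difference was not tested. The tRNA-His 5′-halves were higher in KO corpus (log2 1.01) and lower in KO cauda (log2 -1.65), and again the difference was not tested.

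Reads of 30 to 34 nt that begin like the tRNA-Cys 5′-half were also listed outside the tRNA class, which the counts above leave out. They were 13.2% of the reads with that start in WT testis and 33.3% in WT caput at 2 months, the lowest and the highest of the 10 libraries, and the latter rests on 6 such reads beside 12 in the tRNA class.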

How the results depend on the processing

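No paired analysis was possible because each group is 1 library, and for the same reason no library could be left out. The log2 ratio of the KO to the WT share of tRNA-halves is given first for testis, then for caput, corpus and cauda of 13 months. The cause of each shift was not tested. Against reads other than piRNA it was -0.030, -0.35, 0.56 and 0.0032. Against miRNA reads it was -0.60 in caput, 0.63 in corpus and -0.11 in cauda. Against plus-strand tRNA reads it was 0.044, 0.038, 0.36 and 0.24, so caput changed sign. With 28 to 36 nt it was 0.040 for testis and -0.12 for caput. With 30 to 32 nt it was 0.13, -0.050, 0.34 and 0.043, and -0.23 in caput at 2 months. With 33 and 34 nt it was -0.047, -0.21, 0.81 and -0.083, and 0.26 at 2 months. Without mismatched reads it was 0.12, -0.021, 0.14 and -0.0048. With both strands it was -0.10 in caput, 0.54 in corpus and -0.011 in cauda, and with Rfam entries only -0.11, 0.56 and -0.0049. Without the 10 most abundant sequences it was 0.22, -0.37, 0.95 and 0.18, and -1.01 at 2 months. For distinct sequences at equal depth it was 0.15, 1.64, -0.16 and -0.34, and 0.047 at 2 months.

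Some alternatives were chosen after seeing the data. Without the tRNA-Gly start the ratio was -0.20 in caput, 0.82 in corpus and 0.0078 in cauda, and without the tRNA-Glu start 0.38 in corpus. With 18 nt tRNA-Gly reads counted it was -0.092, -0.14, 0.21 and -0.24. With sequences listed in both libraries only it was 0.42 in corpus.

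The share was at least 2-fold above testis in 6 of 6 epididymal libraries, at least 2-fold higher at 13 than at 2 months in 2 of 2 genotypes, and highest in cauda in 2 of 2. Against plus-strand tRNA reads these counts were 0, 0 and 0. Without the 10 most abundant sequences cauda was highest in 0 genotypes. For distinct sequences the count for age was 0 and that for cauda 1. Of 10 libraries, 5 had 30 nt as the most frequent length, 1 without the 10 most abundant sequences and 10 without mismatched reads.

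Among families with at least 0.1% of the tRNA-half reads of a library of the pair, those whose share of these reads was at least 2-fold apart numbered 1 for testis, 0 for caput, 4 for corpus, 2 in cauda and 0 in caput at 2 months. Grouped by matched entry they numbered 7, 1, 6, 5 and 2. Corpus had 1 without mismatched reads, caput at 13 months 1 when 2 mismatches in the start were allowed (chosen after seeing the data), and testis 0 without the leading sequence of each family.

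With a minimum of 10 RPM the single sequences higher and lower in KO numbered 3 and 1 of 40 for testis and 23 and 39 of 192 for caput at 13 months. They numbered 55 and 34 of 183 in corpus, 36 and 17 of 230 in cauda, and 2 and 36 of 65 in caput at 2 months. With 1000 RPM they numbered 0 and 0 of 7 in caput at 13 months, 7 and 0 of 14 in corpus and 0 and 0 of 8 in cauda. At 2 months 0 of 2 were lower. Relative to tRNA-half reads 12 of 46 were lower in corpus. With a pseudocount of 0.1, 1 of 27 genes of the list was higher in KO. The share over all sequences or genes was not computed at these settings, so whether these counts differ from it was not tested.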
